A study of Homo sapiens with 4 samples.

Results

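The interleukin 33 receptor and the MYD88 relay below it were read from RNA sequencing of K562/G01 cells through 6 genes, IL1RL1, IL1RAP, MYD88, IRAK4, IRAK1 and TRAF6, out of 28482 in the table. They were taken by gene name and selected on the knockdown ratios of IL1RL1 and IL1RAP, which lay on opposite sides of 0. The knockdown values of all 6 genes are therefore a description with no test. All 6 passed the expression filter of at least 1 CPM (the count scaled to the library total) in at least 2 libraries, as did 13296 genes in all. K562/G01 is an imatinib-resistant derivative of K562, an established line from chronic myeloid leukemia driven by BCR-ABL1, the kinase targeted by imatinib. All cells stably carried a lentiviral short hairpin RNA with either a scramble sequence or one against TCF7, which encodes a nuclear effector of Wnt signalling. Each kind of cell was left without drug or treated with imatinib at 1 µM for 48 hours, which gave 4 groups with 1 library each. The labels do not say whether the infected cells were a clone.

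Interleukin 33 binds a receptor called ST2, the product of IL1RL1, and the pair then recruits the shared coreceptor IL1RAP, which also serves the receptors for interleukin 1 and interleukin 36. The cytoplasmic domains gather the adaptor MYD88, to which the kinases IRAK4 and then IRAK1 are added. The ubiquitin ligase TRAF6 carries the signal on to TAK1, the IKK complex and MAP kinases. ST2 is best known on mast cells, basophils, eosinophils and some lymphocytes, and its gene has a distal and a proximal start and also makes a soluble decoy form. The deposited values are per gene and do not separate these forms. IL1RAP is also studied as a surface marker of chronic myeloid leukemia stem cells.

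Library totals lay between 30634832 and 34095585 counts. TCF7 checked the labels, with 339 and 367 counts in the scramble libraries without and with imatinib against 78 and 117 in the knockdown libraries. Erythroid genes typical of K562 had a summed level of 3402 to 3629 CPM in the 4 libraries, and all 13 had counts in each. Groups have 1 library, so the 95% interval beside a value covers only counting error (amplified reads are not separate molecules), and a ratio of 2 libraries has no replicate check. Treated cells below are those given imatinib. Imatinib was tested over both knockdown states with edgeR, 2 libraries against 2, with the spread taken from how far the pairs disagree, pooled over genes. Its p-values set the imatinib effect against how far the knockdown states disagree. They do not measure variation between cultures of a group. The knockdown calls below come from the same fit, 2 libraries against 2 over both imatinib states. Each side held 1 hairpin, so these p-values measure how far the imatinib states disagree. They do not measure variation between hairpins. Rose and fell are used only for genes with an adjusted p under 0.05. In bulk RNA, fewer cells of a type and less RNA per cell cannot be told apart.

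The upstream sequences of the receptor genes are shown because these were the members that differed most with TCF7 knockdown. RefSeq (GRCh38.p14) gives IL1RL1 both of its starts and IL1RAP a single one. Each sequence is the 250 bases before the start on the plus strand, at chr2:102311313-102311562 for the distal and chr2:102337007-102337256 for the proximal start of IL1RL1 and at chr3:190513835-190514084 for IL1RAP. Capitals mark the core letters of a TCF/LEF motif, CTTTG, and of a GATA motif, GATAA, on either strand.
IL1RL1 distal: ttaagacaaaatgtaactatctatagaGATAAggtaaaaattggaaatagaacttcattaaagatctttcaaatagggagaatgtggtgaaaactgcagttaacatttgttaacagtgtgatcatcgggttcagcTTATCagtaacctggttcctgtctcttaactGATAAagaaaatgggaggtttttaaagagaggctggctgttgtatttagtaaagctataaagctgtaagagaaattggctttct
IL1RL1 proximal: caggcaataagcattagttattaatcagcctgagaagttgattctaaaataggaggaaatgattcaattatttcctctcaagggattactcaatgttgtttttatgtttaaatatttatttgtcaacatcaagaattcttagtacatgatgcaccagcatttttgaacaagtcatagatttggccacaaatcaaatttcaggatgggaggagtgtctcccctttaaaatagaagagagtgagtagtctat
IL1RAP: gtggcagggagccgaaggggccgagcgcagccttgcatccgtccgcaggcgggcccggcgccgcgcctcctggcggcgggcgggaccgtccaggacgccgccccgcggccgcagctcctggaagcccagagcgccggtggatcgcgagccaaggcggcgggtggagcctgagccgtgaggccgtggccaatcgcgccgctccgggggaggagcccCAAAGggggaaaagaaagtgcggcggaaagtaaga
The distal IL1RL1 window held 3 GATAA cores and the proximal window 0, while the TCF/LEF core was found in neither. The IL1RAP window held 1 TCF/LEF core, on the minus strand 35 bases before the RefSeq start, and 0 GATA cores. GENCODE release 29, a second annotation, starts IL1RL1 at 102311502 and IL1RAP at 190514051. These positions lie inside the distal IL1RL1 window and the IL1RAP window. The TCF/LEF core of IL1RAP reaches across the GENCODE start, so it lies wholly upstream of the RefSeq start alone. Among 34788 such windows of all genes, 42.1% held CTTTG and 20.5% held GATAA on either strand. The windows also differed in base composition, with 33.6% and 33.2% G and C at the distal and proximal IL1RL1 starts and 74.8% at IL1RAP.

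IL1RL1, the ligand-binding subunit, was at 15.3 CPM (13.96 to 16.7) in scramble cells, 37.3 CPM (35.2 to 39.6) in knockdown cells, 15.5 CPM (14.2 to 16.9) in treated scramble cells and 35.9 CPM (33.8 to 38.03) in treated knockdown cells. Both knockdown libraries were high and both scramble libraries low, and their counting intervals did not overlap. The gene (ENSG00000115602.16) lies on chromosome 2 from 102311502 to 102352037 in GRCh38. Its log2 ratio of knockdown over scramble was 1.30 (1.15 to 1.45) without imatinib and 1.23 (1.08 to 1.38) under it, or 2.45-fold and 2.34-fold. These values ranked 60 and 96 from the highest among 13296 genes. A ratio of 2-fold or more in both pairs was seen in 0.391% of all tested genes and in 0.228% of the 4383 genes between 10 and 50 CPM on average. This contrast chose the gene, so the shares are given as background alone.

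IL1RAP, the signalling coreceptor, was at a low level. Scramble cells had 115 counts, knockdown cells 46, treated scramble cells 85 and treated knockdown cells 11. In CPM these were 3.47 (2.86 to 4.16), 1.502 (1.10 to 2.00), 2.49 (1.99 to 3.08) and 0.347 (0.173 to 0.620). The scramble libraries were the high ones, and the knockdown library with imatinib was the lowest by a margin larger than its counting error. The gene (ENSG00000196083.9) lies on chromosome 3 from 190514051 to 190659750. Its log2 ratio of knockdown over scramble was -1.17 (-1.73 to -0.69) without imatinib and -2.63 (-3.88 to -1.92) under it, which is 44.5% and 16.2% of the scramble level. Its ranks were 142 and 11 from the lowest. Of all tested genes 0.564% were 2-fold or more lower in both pairs, and of the 2590 genes between 1 and 4 CPM on average 1.47% were. The log2 ratio under imatinib minus that without was -1.46, a difference that could not be tested with 1 library per group.

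**Figure D1:**
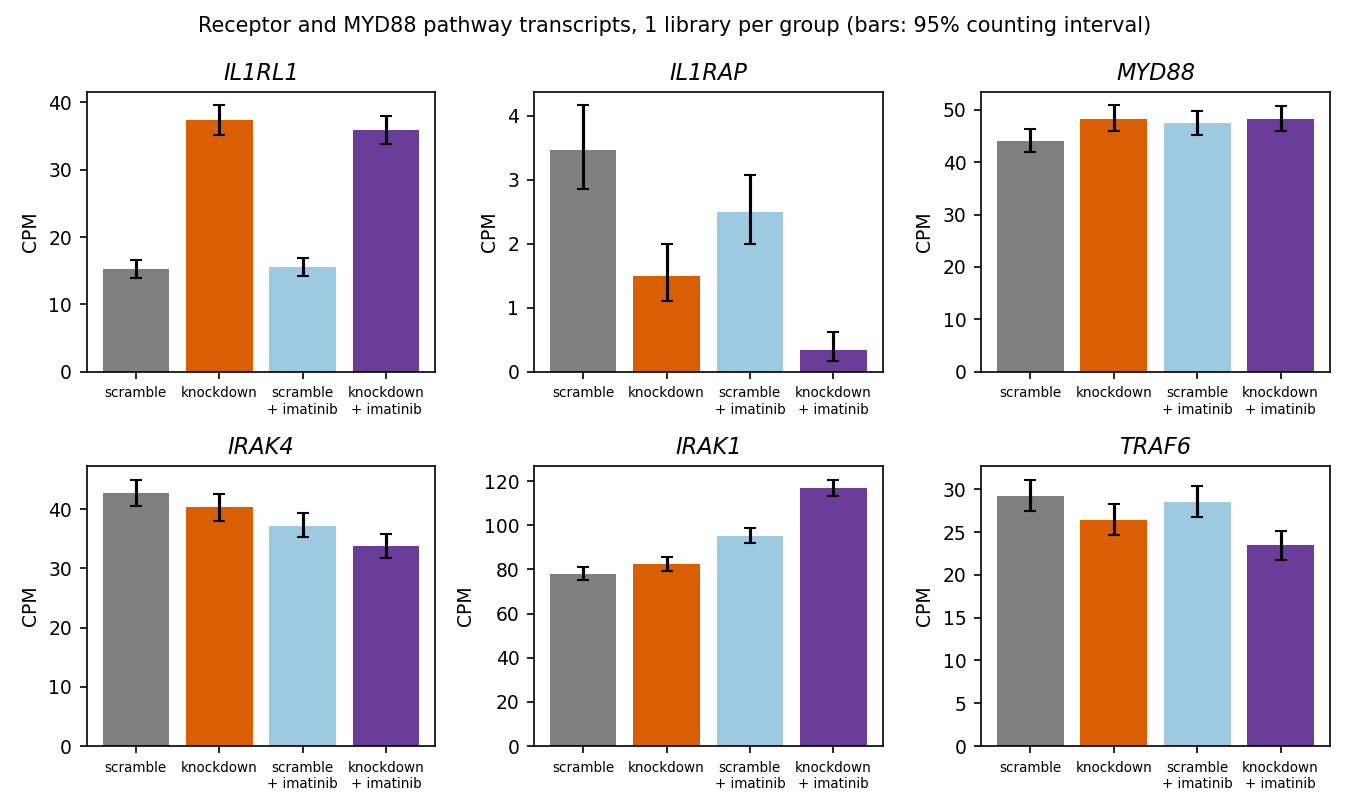
Level of each gene in CPM (vertical axis, from 0, a separate scale per panel) in the 4 libraries, with 1 library per group and error bars for the 95% counting interval. IL1RL1 was at 35.9 and 37.3 CPM in the knockdown libraries against 15.3 and 15.5 in the scramble libraries, IL1RAP was lowest at 0.347 CPM in the knockdown library with imatinib, and IRAK1 was highest there at 117 CPM.

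The ratio of the subunits within a library restates the knockdown values that chose them and is given as a description. Per length of transcript, on the scale of the deposited FPKM values, IL1RL1 exceeded IL1RAP by 8.85 times (7.21 to 10.9) in scramble cells and 12.5 times (9.94 to 15.9) in treated scramble cells. In the knockdown libraries it exceeded it by 50.03 times (37.3 to 68.7) without and 208 times (116 to 418) with imatinib. The scramble intervals overlapped each other, the knockdown intervals lay above both, and that of the library with both treatments lay above all others. The last ratio rests on 11 IL1RAP counts.

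The genes of the relay differed far less between the libraries. MYD88, the adaptor (ENSG00000172936.12; chromosome 3, 38138478 to 38143022), was at 44.1 CPM (41.8 to 46.4) in scramble cells, 48.3 (45.9 to 50.8) in knockdown cells, 47.4 (45.1 to 49.8) in treated scramble cells and 48.3 (45.9 to 50.7) in treated knockdown cells. All 4 intervals overlapped. Its knockdown log2 ratios were 0.14 (0.04 to 0.25) and 0.04 (-0.06 to 0.15) without and under imatinib, the first with an interval above 0.

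IRAK4, the kinase that starts the IRAK cascade (ENSG00000198001.13; chromosome 12, 43758944 to 43789543), was at 42.7 CPM (40.5 to 45.0), 40.3 (38.1 to 42.6), 37.2 (35.2 to 39.3) and 33.7 (31.7 to 35.8) in the same order of libraries. Both imatinib libraries were below both libraries without the drug. Its knockdown log2 ratios were -0.08 (-0.19 to 0.04) and -0.12 (-0.24 to -0.0037).

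IRAK1, the kinase that IRAK4 phosphorylates (ENSG00000184216.13; chromosome X, 154010500 to 154019980, minus strand), was at 78.2 CPM (75.2 to 81.2), 82.4 (79.2 to 85.7), 95.3 (92.1 to 98.7) and 117 (113 to 121). Both imatinib libraries were above both others, and the knockdown library with imatinib was the highest. Its knockdown log2 ratios were 0.08 (0.00 to 0.16) and 0.31 (0.25 to 0.38), and 0.17 and 0.16 once trends over GC content and length were taken out.

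TRAF6, the ubiquitin ligase (ENSG00000175104.14; chromosome 11, 36487027 to 36510272, minus strand), was at 29.2 CPM (27.4 to 31.1), 26.4 (24.7 to 28.3), 28.5 (26.7 to 30.3) and 23.4 (21.8 to 25.2). The knockdown libraries were the lower ones in each imatinib state, and without imatinib the intervals overlapped. Its knockdown log2 ratios were -0.14 (-0.27 to -0.00037) and -0.26 (-0.40 to -0.12), both with intervals below 0.

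**Figure D2:**
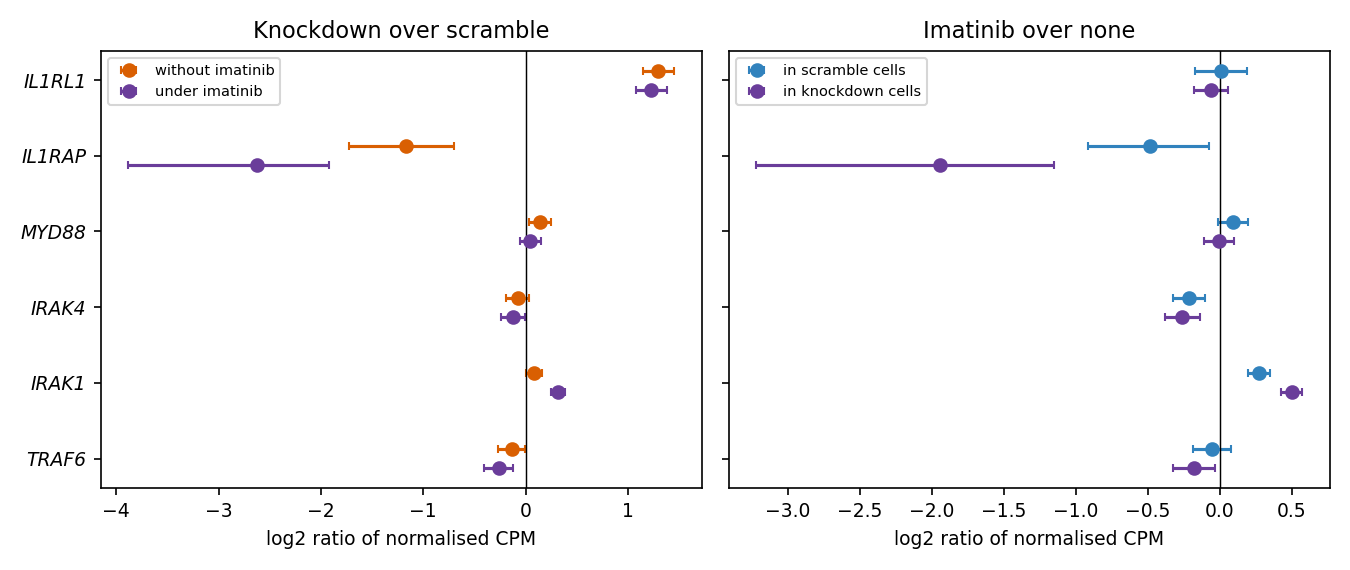
Log2 ratios of TMM-normalised CPM (horizontal axes) for the 6 genes, knockdown over scramble on the left and imatinib over none on the right, with bars for the 95% counting interval and 1 library on each side of a ratio. IL1RL1 and IL1RAP lie on opposite sides of 0 with knockdown, at 1.30 and 1.23 against -1.17 and -2.63, and the other 4 genes lie between -0.26 and 0.31.

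Compared per length, the order of levels in the scramble library was IRAK1 at 19.5 deposited FPKM, MYD88 at 11.05, IRAK4 at 7.58, TRAF6 at 6.002, IL1RL1 at 2.66 and IL1RAP at 0.300. Neighbours in this order differed beyond counting error, the closest being IRAK4 over TRAF6 with a ratio of 1.26 (1.16 to 1.37). In the knockdown library IL1RL1, at 6.499 FPKM, stood above TRAF6 at 5.43, with a ratio of TRAF6 over IL1RL1 of 0.835 (0.762 to 0.915). In the knockdown library with imatinib IL1RL1 was at 6.24 FPKM and IRAK4 at 5.99, a ratio of IRAK4 over IL1RL1 of 0.960 (0.882 to 1.04) whose interval includes 1. In scramble cells the same ratio was 2.85 (2.58 to 3.17). The proportion of the kinases also differed. IRAK1 exceeded IRAK4 by 2.58 times (2.41 to 2.75) in scramble cells, 2.88 (2.69 to 3.08) in knockdown cells, 3.60 (3.38 to 3.85) in treated scramble cells and 4.87 (4.55 to 5.22) in treated knockdown cells. These ratios are not corrected for GC content, which is 63.0% in IRAK1 and 42.1% in IRAK4. In a fit with offsets for GC content and length, the imatinib log2 fold changes were -0.09 for IRAK1 and -0.12 for IRAK4.

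**Figure D3:**
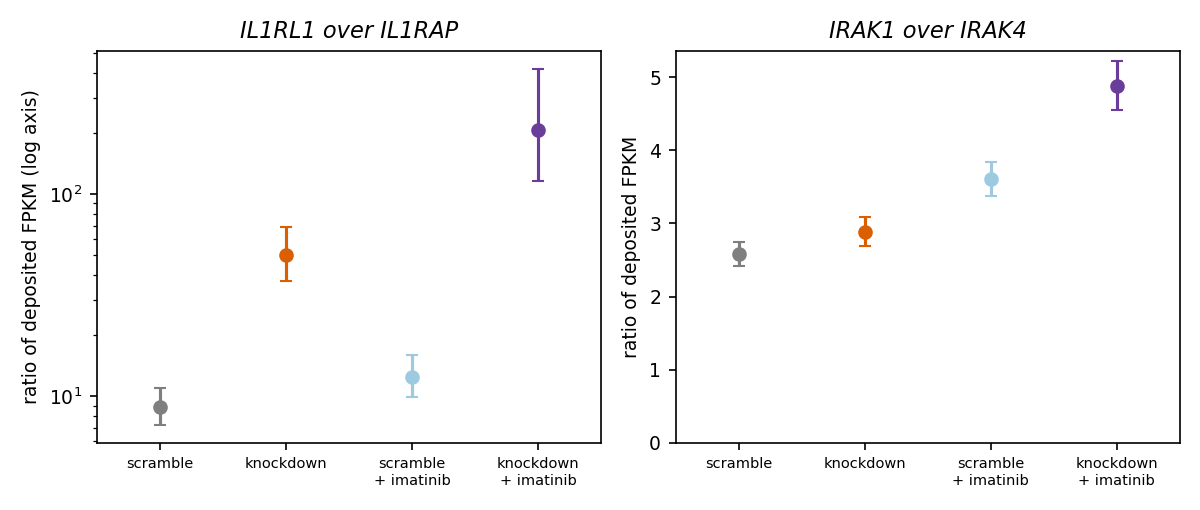
Ratio of deposited FPKM values within each library, IL1RL1 over IL1RAP on a log axis (left) and IRAK1 over IRAK4 on a linear axis from 0 (right), with 95% counting intervals and 1 library per group. The receptor ratio is 8.85 and 12.5 in the scramble libraries against 50.03 and 208 in the knockdown libraries, and the kinase ratio is 2.58 and 2.88 without imatinib against 3.60 and 4.87 with it. Neither ratio is corrected for GC content.

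With imatinib, tested over both knockdown states, 1 member rose and 1 fell. IRAK1 had log2 ratios of 0.27 (0.20 to 0.35) in scramble and 0.50 (0.43 to 0.57) in knockdown cells and rose (log2 fold change 0.39, SE 0.0796, edgeR adjusted p = 0.000661), higher in 2 of 2 pairs. IL1RAP had ratios of -0.48 (-0.91 to -0.07) and -1.94 (-3.22 to -1.15) and, lower in 2 of 2 pairs, fell (-1.06, SE 0.385, edgeR adjusted p = 0.0450). The treated knockdown library, with 11 IL1RAP counts, enters both this test and the knockdown ratios that chose the gene. The IL1RAP call is therefore not independent of that choice. This was 2 of 6 members, where 20.9% of all 13296 genes were called for imatinib, 13.8% higher and 7.08% lower. Not called were IRAK4, which was lower in 2 of 2 pairs (-0.24, SE 0.0976, edgeR adjusted p = 0.0801), TRAF6 (-0.11, SE 0.110), MYD88 (0.04, SE 0.0923) and IL1RL1 (-0.03, SE 0.112).

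Both calls depended on the processing. GC content and the imatinib log2 ratio had a Spearman correlation of 0.68 in scramble and 0.75 in knockdown cells over 10095 genes averaging at least 5 CPM. Genes are not independent replicates. IRAK1 has a GC content of 63.0%, higher than 94.2% of the tested genes, and the other members lie between 41.5% and 51.9%. With GC and length offsets its log2 fold change was -0.09 (SE 0.0663, edgeR adjusted p = 0.569). IL1RAP had -0.94 (SE 0.369, edgeR adjusted p = 0.136), and 0 of 6 members were called (1 at an unadjusted p under 0.05), where 4.48% of all genes were. The call of IL1RAP was also absent with DESeq2 size factors (edgeR adjusted p = 0.0683), and DESeq2 gave it no adjusted p.

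**Figure D4:**
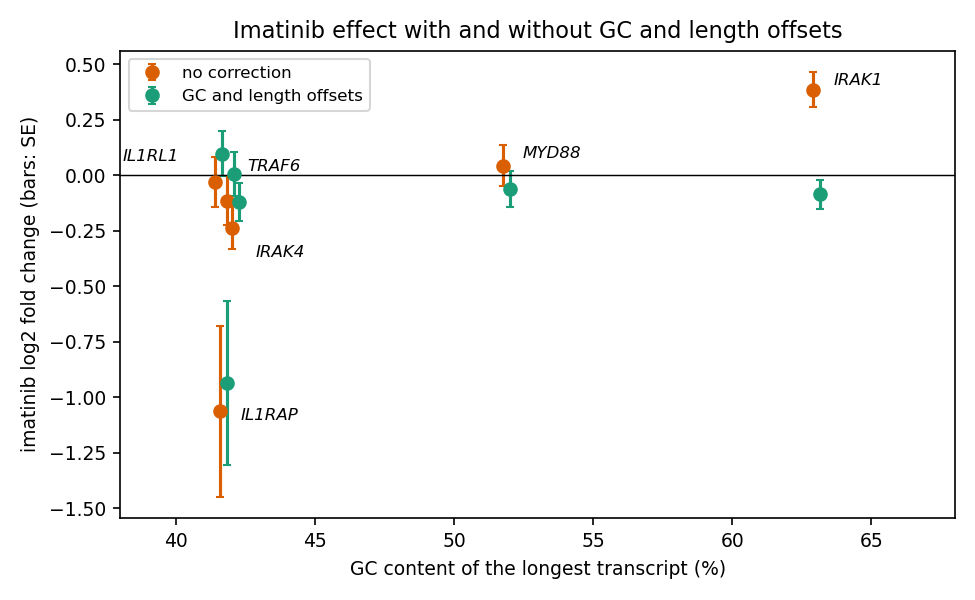
Imatinib log2 fold change (vertical axis, bars for the SE) of the 6 genes against the GC content of their longest transcript in percent (horizontal axis), in the edgeR fit over all 4 libraries without and with GC and length offsets. IRAK1, at 63.0% GC, lies at 0.39 without and -0.09 with the offsets, and IL1RAP lies lowest in both, at -1.06 and -0.94.

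The other genes of the pathway were called with knockdown at a share near that of all genes. Of 104 genes in 8 lists, 66 were tested, and 1 rose and 2 fell (4.55%), where 7.14% of all genes were called, 3.8% higher and 3.34% lower. With GC and length offsets 7 of the 66 were called (10.6%), where 12.3% of all genes were. The median log2 fold change of the 66 was -0.01 and that of all genes 0.01. The gene that rose was IL18R1, a receptor subunit for interleukin 18 (log2 fold change 0.67, SE 0.109, edgeR adjusted p = 5.17e-05, higher in 2 of 2 pairs). TLR4, the receptor for bacterial lipopolysaccharide, which also signals through MYD88, fell from 44 and 75 counts in the scramble libraries to 17 and 13 in the knockdown libraries without and with imatinib (-1.82, SE 0.453, edgeR adjusted p = 0.00842). TLR4 reached 1 CPM only in the scramble libraries (1.33 and 2.20 CPM, against 0.555 and 0.410). It passed the filter only through the group where it was high, and with no filter the call was kept (edgeR adjusted p = 0.00398). SQSTM1, a scaffold that binds TRAF6, fell (-0.26, SE 0.0823, edgeR adjusted p = 0.0439). Its log2 ratios were -0.52 without imatinib and -0.01 under it, and the call was lost with DESeq2 size factors (edgeR adjusted p = 0.118). Of IL18R1, TLR4 and SQSTM1 the DESeq2 test called IL18R1 alone, and limma on deposited FPKM did not call TLR4 or SQSTM1. With GC and length offsets IL18R1, TLR4 (edgeR adjusted p = 0.00220) and SQSTM1 (edgeR adjusted p = 1.41e-05) were each called.

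At the level of each step, edgeR called 0 of 11 adaptors and IRAK partners with knockdown (2 at an unadjusted p under 0.05, 0 by DESeq2), 0 of 17 genes of the IKK and MAP kinase branches (2 and 0) and 0 of 14 inhibitors and feedback genes (2 and 0). With GC and length offsets 1 of 11, 2 of 17 and 0 of 14 were called, all lower, where 12.3% of all genes were called. Among the feedback genes, which NF-kB activity is known to induce, NFKBIA had a log2 fold change of -0.09 with knockdown and TNFAIP3 -0.33, neither called. None of the 6 ligands measured passed the filter (0 of 6), with IL1A at 1 to 7 counts and IL18 at 10 to 26. Interleukin 33 itself was not analysed here. Of the cytokines that interleukin 33 is known to induce in mast cells, IL6 was tested and not called, and IL13 and IL5 had at most 6 counts in any library.

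With imatinib 14 of the 66 pathway genes rose (21.2%, against 13.8% of all genes) and 2 fell (3.03%, against 7.08%). With GC and length offsets 1 of the 66 was called (1.52%, against 4.48% of all genes). The genes that rose without offsets included TICAM1, the adaptor of the MYD88-independent branch (log2 fold change 0.64), MAP2K7, a kinase that activates JNK (0.62), MAP2K3, a kinase that activates p38 (0.64), SIGIRR, an inhibitory member of the receptor family (0.94), and SQSTM1 (0.44). All genes of the linear ubiquitin ligase complex in the list rose, RNF31 (0.54), SHARPIN (0.54) and RBCK1 (0.45), though with GC and length offsets none was called and SHARPIN and RBCK1 lay below 0. CHUK, an IKK kinase, fell (-0.24), as did TAB3, a TAK1 partner named here after its value was seen (-0.21). SARM1 (1.16), ECSIT (0.32), JUN (0.47), NFKBIB (0.47) and TNIP2 (0.33) also rose. SARM1 reached 1 CPM only in the imatinib libraries (1.85 and 1.20 CPM, against 0.784 and 0.555). It passed the filter only through the group where it was high. Its call was lost with no filter (edgeR adjusted p = 0.0892) and with DESeq2 size factors (edgeR adjusted p = 0.0637). The gene called with the offsets was OTUD7B, a deubiquitinase (0.33 in both fits, edgeR adjusted p = 0.0106 and 0.00229), and ECSIT and TNIP2 then also had log2 fold changes below 0.

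IL1RL1 lies in a cluster of interleukin 1 family receptor genes, and its neighbours within 500 kb were compared. IL18R1 starts 0.027 kb from IL1RL1 on the same strand in GENCODE release 29 and shares 95 exonic bases with it, so reads there could be assigned to neither or either. It was at 21.2 CPM in scramble cells, 35.2 in knockdown cells, 22.3 in treated scramble cells and 33.4 in treated knockdown cells. Both knockdown libraries were again the high ones, and the log2 ratios were 0.74 and 0.60 without and under imatinib. IL18RAP, the accessory subunit of the interleukin 18 receptor, had ratios of 0.00081 and 0.62 and was not called for knockdown (edgeR adjusted p = 0.0920). With GC and length offsets IL18RAP was called (log2 fold change 0.31, edgeR adjusted p = 0.00827). IL1R1, the interleukin 1 receptor, had -0.23 and 0.38. The other 5 neighbours that passed the filter lay between -0.37 and 0.33 without and between -0.18 and 0.63 under imatinib. Within 500 kb of IL1RAP 0 of the 5 genes in the table passed the filter.

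**Figure D5:**
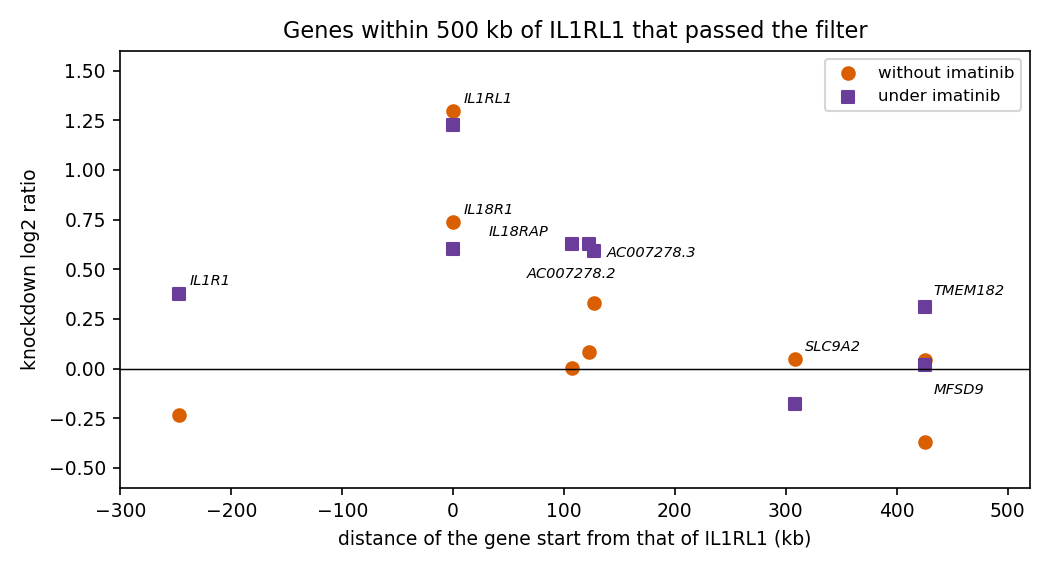
Log2 ratio of knockdown over scramble (vertical axis) for the genes within 500 kb of IL1RL1 that passed the filter, against the distance of their start from that of IL1RL1 in kb (horizontal axis), without imatinib (circles) and under it (squares), 1 library on each side of a ratio. IL1RL1 (1.30 and 1.23) and the overlapping IL18R1 (0.74 and 0.60) are the highest without imatinib.

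Genes of the cells that ST2 is best known from were read beside it. Of 19 mast cell, basophil and eosinophil genes 9 were tested, and with knockdown 3 rose and 0 fell, where 3.8% of all genes were called higher and 3.34% lower. DESeq2 called 2 of the 9. With GC and length offsets 4 of the 9 were called higher and 0 lower, where 12.3% of all genes were called in either direction. The list's median was 0.39 against 0.01 over all genes. HDC, the histamine-forming enzyme, had 57 and 55 counts in the scramble libraries against 181 and 148 in the knockdown libraries (log2 fold change 1.67, SE 0.280, edgeR adjusted p = 8.24e-05). EPX, the eosinophil peroxidase (1.46, edgeR adjusted p = 1.16e-10), and CLC, the Charcot-Leyden crystal protein (0.50, edgeR adjusted p = 0.0241), also rose. The CLC call was lost with DESeq2 size factors (edgeR adjusted p = 0.0587), by DESeq2 (adjusted p = 0.367) and by limma (adjusted p = 0.151). MS4A2, a subunit of the IgE receptor, had -0.17 and KIT, the mast cell growth factor receptor, -0.18, and neither was called. PRG3, a homolog of eosinophil major basic protein, had -0.71 and was not called. The remaining tested genes of the list lay above 0 and were not called, PRG2 at 0.82, CSF2RB at 0.39 and IL5RA at 0.23. With GC and length offsets CSF2RB was called (0.37, edgeR adjusted p = 0.00572). CPA3, a mast cell protease, had 0, 0, 0 and 4 counts and FCER1A, the IgE-binding subunit, 6, 5, 6 and 0. The summed level of the 15 genes in the table was 79.9 and 79.8 CPM in the scramble libraries and 135 and 112 CPM in the knockdown libraries. EPX made up 15.0 and 16.4 CPM of the former and 52.3 and 35.0 CPM of the latter. The part of this list in the IL1RL1 values was not tested.

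Markers of other cell types were also read. Monocyte genes summed to 38.6 to 48.1 CPM, with ITGAM higher with knockdown (1.10, edgeR adjusted p = 0.0279; DESeq2 adjusted p = 0.367, limma 0.127), and CD14 and CSF1R at 9 counts or fewer. Lymphoid genes summed to 18.1 to 26.1 CPM, with 0 of 2 tested genes called by edgeR (0 at an unadjusted p under 0.05, 0 by DESeq2) and GATA3, a transcription factor of T cells and innate lymphoid cells, at 1 to 6 counts. Fibroblast and endothelial genes summed to 29.7 to 48.1 CPM, where COL1A1 rose from 5 and 7 to 42 and 32 counts (edgeR adjusted p = 0.00142; DESeq2 0.138, limma 0.176) and PECAM1 fell (-0.63, edgeR adjusted p = 3.70e-05; limma 0.0546). COL1A1 reached 1 CPM only in the knockdown libraries (1.37 and 1.01 CPM, against 0.151 and 0.205). It passed the filter only through the group where it was high, and with no filter the call was kept (edgeR adjusted p = 0.00184). Among the erythroid genes ALAS2, the heme synthesis enzyme of red cells, rose with knockdown (0.52, edgeR adjusted p = 0.000317; limma 0.0736), and GATA1 was not called (0.15). With imatinib 4 of 12 tested erythroid genes rose and 5 fell, where 20.9% of all genes were called, among them HBA2 (0.96), GATA1 (0.48), KLF1 (0.45) and HBG2 (-0.32). With GC and length offsets 1 was called higher and 4 lower, and HBA2 (0.38), GATA1 (0.10) and KLF1 (-0.11) were not called while HBG2 was (-0.30). KIT fell with imatinib (-1.15) and was called with the offsets too (-1.04).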

How the data were processed

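Total RNA of 4 cultures, 1 per group, was depleted of ribosomal RNA and made into strand-keeping libraries, per the labels' protocols. The submitters' processing notes list FastQC, HISAT2, HTSeq 0.6.1 and GRCh38; which annotation and strand setting they used is not stated in these sources. The authors deposited whole-number counts, used as they stand. FPKM as the authors deposited it counts here as a score, because 6 genes have negative values; for the members it equals CPM per kilobase of GENCODE release 29 union exons.

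Genes with at least 1 CPM in 2 libraries entered a quasi-likelihood fit in edgeR 4.0.16 under R 4.3.3 on TMM-scaled counts, both factors additive, 1 residual and 33.8 prior degrees of freedom, Benjamini-Hochberg over 13296 genes. The test was checked on simulated counts. Log2 ratios use a prior count of 2; intervals are exact Poisson or binomial. Members, lists and motifs were chosen with earlier results of these data known. Named are all members, TCF7, up to 4 called genes per list and contrast, genes within 500 kb of a receptor gene, and the 5 nearest profiles to each, of which 1 is not reported here. Uncalled list genes that are named were picked after their values were seen. Alternatives were other scalings, filters of 5 CPM or none, a prior count of 0.5, log2 of FPKM plus 0.1 in limma 3.58.1, DESeq2 1.42.0, GC and length offsets (mgcv 1.9.3, 13255 genes), and imatinib as the only factor with each library left out. IL1RAP shares 535 exonic bases with a long noncoding RNA and IRAK1 61 with a microRNA.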

Additional observations from a re-analysis of the deposited data

How the results depend on the processing

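The 2 members called for imatinib became 1 with DESeq2 size factors, a filter at 5 CPM (which IL1RAP did not pass), the DESeq2 test and limma on deposited FPKM. They became 0 with GC and length offsets and with imatinib as the only factor, where edgeR called 0 of 13296 genes; in that form, leaving out each library gave 0 to 1, with log2 fold changes of -2.83 to -0.0082 for IL1RAP, 0.24 to 0.54 for IRAK1, -0.78 to 0.75 for IL1RL1 (0.45 without the treated scramble library), -0.028 to 0.12 for MYD88 and -0.25 to 0.021 for TRAF6. IRAK1 was the member called without that library (0.54, edgeR adjusted p = 0.0332). A lone library is there assumed to vary like the others, and knockdown is unevenly spread over the groups. With the offsets the imatinib log2 fold changes turned to 0.10 for IL1RL1, -0.063 for MYD88, -0.085 for IRAK1, 0.0051 for TRAF6, -0.10 for ECSIT, -0.063 for SHARPIN, -0.075 for RBCK1, -0.094 for TNIP2 and -0.11 for KLF1.

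The knockdown ratios of IL1RL1 and IL1RAP kept their direction under every scaling, prior count and trend tried; on log2 of FPKM plus 0.1 that of IL1RAP under imatinib was -1.28, a value that the added 0.1 pulls toward 0 at its low level. Pathway genes called for knockdown were 3 as reported, 7 with the offsets (2 higher and 5 lower), 1 by DESeq2 and 1 by limma; for imatinib they were 16, 1, 2 and 3. With 1 library per group there were no replicates to pair. The imatinib fit already pairs the libraries by knockdown state, which it holds as a factor. The depth limits IL1RAP most, with 11 counts in 1 library.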

Other observations

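Protein-coding genes averaging at least 5 CPM were ranked by how close their levels over the 4 libraries, centred log2 values, lay to those of the receptor genes, as a description with no test. Among the nearest to IL1RL1 of 9368 genes were CD84, an immune cell receptor of the SLAM family (Euclidean distance 0.199 on the log2 scale), KLHL4 (0.244), IER3IP1 (0.275) and ARSB, a lysosomal sulfatase (0.286). CD84 was at 41.9 and 39.6 CPM in the scramble libraries without and with imatinib and at 84.4 and 90.9 CPM in the knockdown libraries.

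No gene lay as close to IL1RAP. The nearest of 9369 were FAM178B (distance 1.03), DDIT4, an inhibitor of mTOR signalling (1.03), ALDH1L2, a mitochondrial folate enzyme (1.10), SCN2A, a sodium channel subunit (1.11), and MT2A, a metallothionein (1.14). DDIT4 was at 40.6 and 44.2 CPM in the scramble libraries and 23.7 and 12.4 CPM in the knockdown libraries, so that the library with both treatments was also its lowest. IL1RAP itself is below the level set for this ranking, and its own counting error is large beside these distances.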
